A study of Lolium perenne with 10 samples.

Results

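Perennial ryegrass (Lolium perenne) is a cool-season forage and turf grass, and leaf transcripts of its seedlings were compared between a pair of temperature treatments of equal length. The comparison used 4 of the 10 RNA-seq libraries of the series, 2 titled heat and 2 titled cold, and took no untreated library. Members were chosen by their titles alone. The treatment field of the labels contradicts the titles, since the libraries titled heat carry the treatment cold and those titled cold carry heat. The groups are therefore called title-heat and title-cold, and no temperature is attached to either. Per the design text, seedlings 14 days old were held for 12 h at either 4 °C or 42 °C, and 30 seedlings made up each replicate. All groups share the label WT as genotype, leaf as tissue, and growth in a day of 16 h at 22 °C and a night at 18 °C. The other groups, each of 2 libraries, were untreated control, drought (water withheld for 7 days, in seedlings 7 days old at the start) and submergence, whose duration and seedling age the labels leave out. The labels' protocols also speak of Arabidopsis and bermudagrass, so the details given there may not apply to these plants. The name of the deposited table's sheet also carries bermudagrass, and the counts were taken as ryegrass because the column names match the descriptions of these samples. No label describes separate cultures behind the replicates, and p-values then measure only the spread between these samples, which may be technical.

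Temperature acts on a leaf from opposite ends. Cooling slows enzymes and stiffens membranes, and grasses respond with CBF transcription factors, dehydrins, membrane lipid changes and fructan storage. Heating unfolds proteins, and heat shock factors switch on chaperone genes while photosynthesis is damaged. A gene can differ between the treatments because 1 of them moves it, or because both move it in opposite directions or by different amounts. The counts are per assembled sequence cluster, here called a gene, and the files do not pair clusters with names. Of 46394 identifiers, 0 matched the 56406 genes listed for the reference assembly Kyuss_2.0, so no chaperone, cold response or leaf marker gene could be looked up, and the heat shock factor in the series' title was not analysed here. Genes are described by level, size of change and behaviour in the other groups.

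Total counts were 11425066 and 11008169 in the title-heat libraries and 10963004 and 11479502 in the title-cold libraries, and the other 6 libraries held 10847727 to 12605087. Across genes on the log2 scale, the title-heat libraries correlated with each other at r = 0.988 and the title-cold libraries at 0.975, while libraries of the different groups correlated at 0.882 to 0.891. Genes are not independent replicates in these correlations. Counts of replicates differed beyond sampling noise (chi-square over its degrees of freedom 7.05 in title-heat, 17.6 in title-cold), so each library was kept as a replicate. Between replicates, genes over 10 CPM (counts scaled to library depth) differed by a median of 0.16 on the log2 scale in title-heat and 0.21 in title-cold. Genes with at least 10 counts numbered 17742 and 18198 in title-heat and 20513 and 21403 in title-cold. The title-cold libraries thus had more genes at this depth. Each library's own 1000 most-read genes took 65.5% and 63.9% of counts in title-cold and 71.7% and 73.2% in title-heat. At the very top this turned, since the 10 most-read genes took 22.0% and 23.0% in title-cold and 17.2% and 18.5% in title-heat.

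Slightly more genes differed between title-heat and title-cold leaves than did not pass the test, in nearly equal numbers for each direction. Of 20804 genes tested, 10795 (51.9%) had an adjusted p below 0.05 by edgeR's quasi-likelihood test and were called. Title-heat was higher in 5593 genes (26.9%) and lower in 5202 (25.0%). On the log2 scale the higher genes differed by a median of 1.82 and the lower genes by −1.87. The higher genes had a median level of 31.3 CPM in title-heat and 9.18 CPM in title-cold. The lower genes had a median of 2.57 CPM in title-heat and 9.97 CPM in title-cold, so they were read less often than the higher genes over both groups together (6.40 against 22.1 CPM). In bulk leaf RNA, fewer cells of a type and less RNA per cell cannot be told apart.

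The even split held on the scale of TMM factors, which set the bulk of genes level between libraries. These factors were 1.27 and 1.34 in title-cold and 0.782 and 0.75 in title-heat. Scaled by total counts instead, the log2 difference of a gene moved by a median of −0.77, and 3290 genes were called higher and 10463 lower, 23.9% higher against 51.8%. Upper-quartile factors moved it by −0.25 and gave 40.9% higher. With each of TMM, RLE, upper-quartile and total-count scaling, 3290 genes were called higher and 5008 lower. All further values are relative to the TMM scale unless stated.

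**Figure D1:**
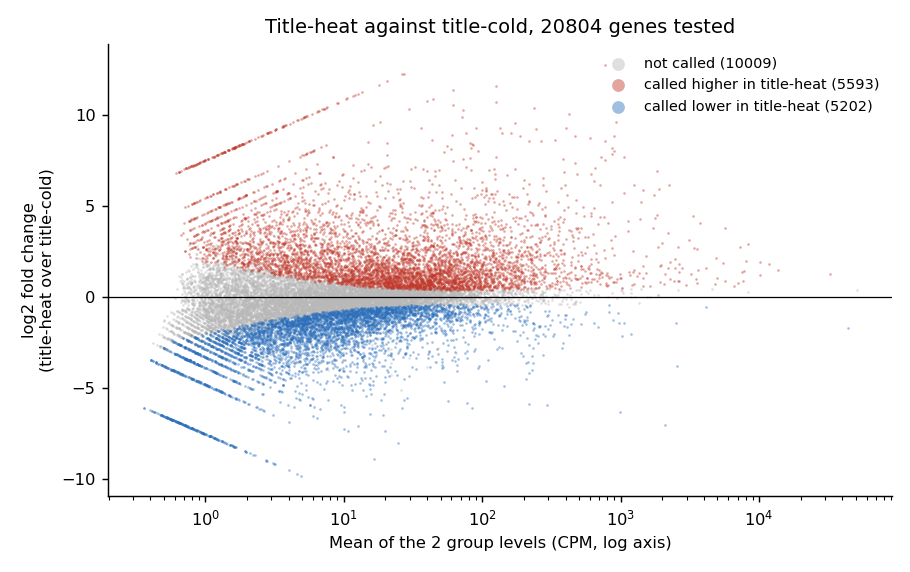
Log2 fold change of title-heat over title-cold (y) against the mean of both group levels in CPM (x, log axis) for each of the 20804 genes tested. The 5593 genes called higher (red) and the 5202 called lower (blue) both reach high levels, while those called lower lie mostly to the left. Diagonal streaks at low levels are genes with few counts in 1 group.

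Large differences were common. Tested against a 2-fold difference rather than against none, 5475 genes (26.3%) passed edgeR's threshold test, 3136 higher (15.1%) and 2339 lower (11.2%) in title-heat. This order turned with upper-quartile factors, at 2614 higher and 3098 lower, and with total counts, at 1915 and 5565. Among the genes called, 1850 higher and 1898 lower genes differed by 2- to 4-fold, and 1107 and 1266 by 4- to 8-fold. At the far end the directions parted, with 437 higher genes (7.81% of the higher) and 132 lower genes (2.54% of the lower) differing by 32-fold or more. For these sizes a gene with 0 counts in 1 group was set to 3 counts per library there. That floor is a higher CPM in title-heat, whose TMM-scaled depth is smaller, and the lower genes were less read (median 6.40 against 22.1 CPM). Both limit how large a fold a lower gene can show, and their part in this contrast was not tested. Both title-heat libraries lay on the same side of both title-cold libraries in 16504 genes (79.3%), 7830 above (37.6%) and 8674 below (41.7%), and all 5593 and 5202 called genes were among them. The log2 ratios of 1 title-heat to 1 title-cold library, taken from replicates numbered 1 and from replicates numbered 2, shared no library and correlated at r = 0.888 across genes. Without title-heat replicate 1 or 2 the calls fell to 6372 or 6438, and the genes past the 2-fold test to 3178 or 3249. Without title-cold replicate 1 or 2 neither of these totals moved by over 1.5 times. The counts by size of fold were not run with a library left out or with another scaling.

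The identifiers shown next were picked by a rule, in each direction the gene with the largest fold and the gene with the largest difference in CPM. The largest rise was in c151487.graph_c0. It had 13445 and 13077 counts in title-heat and 1 and 5 in title-cold. Its level of 1547 ± 55.8 CPM (SD, n = 2) stood against 0.2 ± 0.18 CPM, a ratio of 7518 (95% counting interval 3454 to 20487), and the log2 difference was 12.81 ± 0.35 SE (adjusted p = 6.18e-07, edgeR). The same cluster had 24 and 31 counts in control, 965 and 809 under drought, and 4 and 2 under submergence. Title-heat was thus far above every other library, drought came next, and submergence and title-cold lay at a few reads.

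The gene with the largest excess of CPM in title-heat, c152653.graph_c0, was among the most-read of every group. It had 401740 and 392199 counts in title-heat against 312811 and 241497 in title-cold. Its level was 46315 ± 1790 CPM (SD, n = 2) in title-heat and 19152 ± 4740 CPM in title-cold, a log2 difference of 1.27 ± 0.22 SE (adjusted p = 0.00209, edgeR), and 0.51 with total counts (adjusted p = 0.0323, edgeR). Control held 512464 and 486960 counts of it, drought 485046 and 400472, and submergence 163562 and 209576. The control, drought and title-heat libraries all lay above those of title-cold and submergence. Without title-heat replicate 1 or 2 the difference missed the threshold, with 1.33 and 1.26 on the log2 scale (adjusted p = 0.0799 and 0.0889, edgeR).

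Among lower genes, c162793.graph_c0 showed the largest fold when counts below 3 per library were set to 3. Genes with 0 counts in title-heat can have larger fitted folds, which are no bound. Title-heat had 2 and 1 counts and title-cold 520 and 927, or 0.173 ± 0.0728 CPM against 49.0 ± 16.4 CPM (SD, n = 2). Title-cold was higher by a ratio of 283.6 (95% counting interval 96.9 to 1377), and the log2 difference was −8.05 ± 0.45 SE (adjusted p = 5.16e-06, edgeR). Control had 113 counts in each library, submergence 55 and 72, and drought 81 and 5, so the drought libraries disagreed with each other. Control and submergence lay between the temperature groups.

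The most-read gene of both title-cold libraries, c164041.graph_c6, had the largest loss of CPM in title-heat. It held 881509 and 1097335 counts in title-cold, 8.04% and 9.56% of each library, and 157288 and 198729 in title-heat. Its level was 67603 ± 5910 CPM in title-cold and 20873 ± 4580 CPM in title-heat (SD, n = 2), a log2 difference of −1.70 ± 0.22 SE (adjusted p = 0.000473, edgeR). Control had 543800 and 404144 counts, drought 208220 and 293740, and submergence 188899 and 275315. No other group reached the counts of title-cold. The table holds 1 more cluster whose identifier begins with c164041, and it was called lower too, so reads could be split between them. Without title-heat replicate 1 the adjusted p was 0.08 (edgeR), with a log2 difference of −1.47. Both title-heat libraries had 1 other cluster as their most-read gene, at 3.99% and 4.77% of counts.

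**Figure D2:**
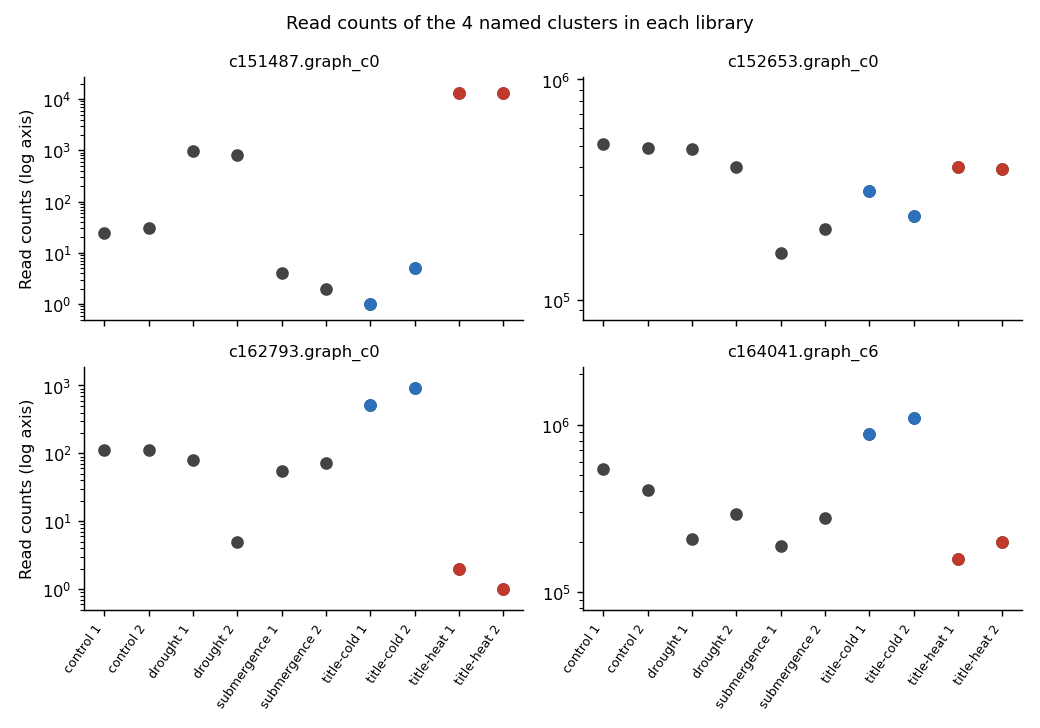
Read counts (log axis, not scaled to depth) of the 4 named clusters in each of the 10 libraries, 1 point per library, with title-heat in red, title-cold in blue and the other groups in grey. The title-heat and title-cold points do not overlap in any panel, which was a condition for naming a gene. The counts of c151487.graph_c0 run from 1 in title-cold to 13445 in title-heat, with 965 and 809 under drought.

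Relative to the other genes, well-read genes lay more towards title-heat and sparsely read genes more towards title-cold. Reads per gene also grow with transcript length, which the files do not give, so these levels rank reads and not molecules. To keep the ranking apart from the comparison, genes were ranked by their level in the control libraries and cut into 5 level classes of nearly equal number, and 270 tested genes with 0 counts in both controls were left out. In the top class, at 24.8 CPM and above by total counts, 2082 of 4107 genes (50.7%) were called higher and 620 (15.1%) lower, with a median log2 difference of 0.48. In the class next to it, 26.8% were called higher and 25.3% lower, with a median of −0.01. In the lowest class, up to 1.32 CPM, 852 of 4107 genes (20.7%) were called higher and 1195 (29.1%) lower, with a median of −0.79. The remaining classes had medians of −0.52 and −0.30. These medians rose from each class to the next, and the step from the lowest to the top class was 1.27 on the log2 scale. With total counts every class had a median below 0, from −1.56 to −0.29, and the step was again 1.27, since a change of scaling shifts all genes nearly alike. The calls turned with it, to 1109 genes higher and 1782 lower in the top class and 636 and 1907 in the lowest. A called share also depends on the reads behind it, so shares in different classes do not compare sizes of change. All classes hold only genes that passed the read filter in the temperature libraries. A gene sparse in control can pass through the group where it is high, and more genes reached 10 counts in title-cold. The low classes are therefore not free of the comparison, and the filter's part in their medians was not tested.

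The most-read genes followed the same order. Of the 100 genes with the most reads over the 4 libraries, 74 were called higher in title-heat and 11 lower (26.9% and 25.0% over all genes tested), with a median log2 difference of 1.27 against −0.11 over all genes tested. Past a 2-fold difference were 44 higher and 8 lower of them. With total counts the numbers were 53 higher and 22 lower, so most were higher on either scale. With either title-heat library left out, fewer of the 100 were called higher and fewer were called lower. Among the 1000 most-read genes, 641 were called higher and 141 lower. The 100 genes most read in title-heat and the 100 most read in title-cold had 65 genes in common. These lists were ranked on the libraries compared, and genes ranked on title-heat alone will tend to be higher there.

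Genes called higher filled most of the title-heat libraries. They took 73.8% and 73.3% of counts in title-heat and 39.5% and 35.6% in title-cold. Genes called lower took 6.10% and 6.26% in title-heat and 28.6% and 31.7% in title-cold. The contrast between these groups follows from the choice of genes, and the other libraries had no part in it. The higher genes held 66.4 ± 0.11% of counts in control, 70.8 ± 1.06% under drought and 42.6 ± 1.36% under submergence (SD, n = 2). The lower genes held 11.4 ± 0.383%, 9.36 ± 0.508% and 20.3 ± 0.169%. By this measure control and drought lay nearer to title-heat, and submergence nearer to title-cold. Such shares weigh the most-read genes heavily. The 100 most-read genes held 49.2% and 46.0% of counts in control and 20.3% and 22.9% under submergence. Counted per gene past the 2-fold test, control was nearer to title-heat in 39.3% of the higher and 59.1% of the lower genes. Submergence was nearer to title-heat in 27.7% and 57.7%, so the 2 measures differ. Shares were not tested, since 2 libraries against 2 cannot give an exact two-sided permutation p below 0.333.

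**Figure D3:**
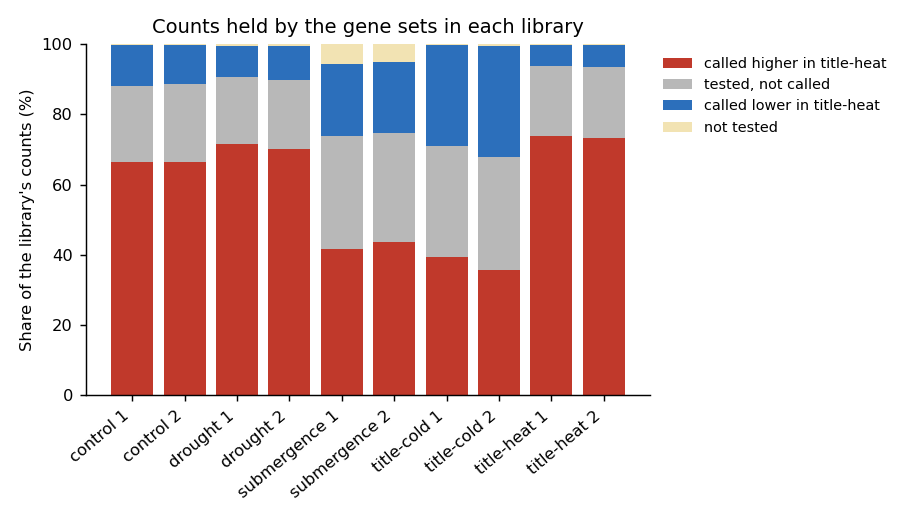
Share of each library's counts (%, stacked bars, 1 bar per library) held by genes called higher in title-heat (red), called lower (blue), tested but not called (grey) and not tested (cream). Higher genes hold 66.5% and 66.3% in the control libraries and 41.7% and 43.6% in the submergence libraries.

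Few genes were read in 1 temperature group alone, and they were sparse. At least 10 counts in both title-heat libraries and 0 in both title-cold libraries were found for 161 genes, at a median level of 2.47 CPM and at most 41.4 CPM, scaled by total counts. The reverse held for 220 genes, at a median level of 1.96 CPM and at most 12.7 CPM. The first set took 0.0779% and 0.0747% of counts in the title-heat libraries, and the second 0.0498% and 0.0602% in the title-cold libraries. A count of 0 allows up to 3 counts in a library, so these genes are unread at this depth rather than shown to be silent. Of the 161 title-heat genes, 46 were read at 10 counts or more in both drought libraries, 25 in both submergence libraries and 16 in both controls, and 13 had 0 counts in all 6 other libraries. Of the 220 title-cold genes, 47 were read at that depth in both submergence libraries, 27 in both controls and 17 in both drought libraries, and 5 had 0 counts in all 6. Over all genes, 25967 and 26054 had at least 10 counts in the submergence libraries, 18079 and 18773 in control and 18638 and 18802 under drought. Submergence thus read more genes of any kind, and its part in these numbers was not tested. The numbers depend on the counts asked for, at 86 and 75 genes with at least 20 counts and 292 and 554 with at least 5. With any 1 of the 4 libraries left out they were larger, 245 to 319 and 470 to 775, because fewer libraries had to meet the rule.

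Control leaves lay between the temperature groups for most genes with a large difference, and so did drought and submergence leaves. These genes were chosen because the temperature groups lie far apart, so another group will tend to fall between them. For the 3136 genes over 2-fold higher in title-heat, the median level was 31.3 and 31.3 CPM in the title-heat libraries, 4.58 and 4.54 CPM in title-cold, 9.45 and 9.44 CPM in control, 20.4 and 22.2 CPM under drought and 8.79 and 9.67 CPM under submergence. Each gene's level was then placed on a scale from 0 at title-cold to 1 at title-heat, on log2(CPM + 1). For the higher genes the median position was 0.37 in control, 0.73 under drought and 0.22 under submergence. Control lay between the temperature groups in 2266 of these genes (72.3%), at or above title-heat in 292 and at or below title-cold in 578. Drought lay between in 62.3% of these genes and submergence in 60.4%. Drought lay at or above title-heat in 900 of them (28.7%). With total counts, submergence moved to 0.35 and control to 0.26, which turns their order, while drought stayed at 0.73.

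For the 2339 genes over 2-fold lower in title-heat, the median level was 1.1 and 1.09 CPM in title-heat, 8.34 and 8.95 CPM in title-cold, 3.13 and 3.31 CPM in control, 2.28 and 2.01 CPM under drought and 3.24 and 3.24 CPM under submergence. Their median position was 0.58 in control, 0.78 under drought and 0.58 under submergence. Control lay between the groups in 1802 of them (77.0%), drought in 67.4% and submergence in 73.1%. Drought was thus nearest to title-heat for both sets, whichever of the TMM, upper-quartile and total-count scales was used. The position of submergence for the lower genes ran from 0.47 to 0.61 over these scales.

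**Figure D4:**
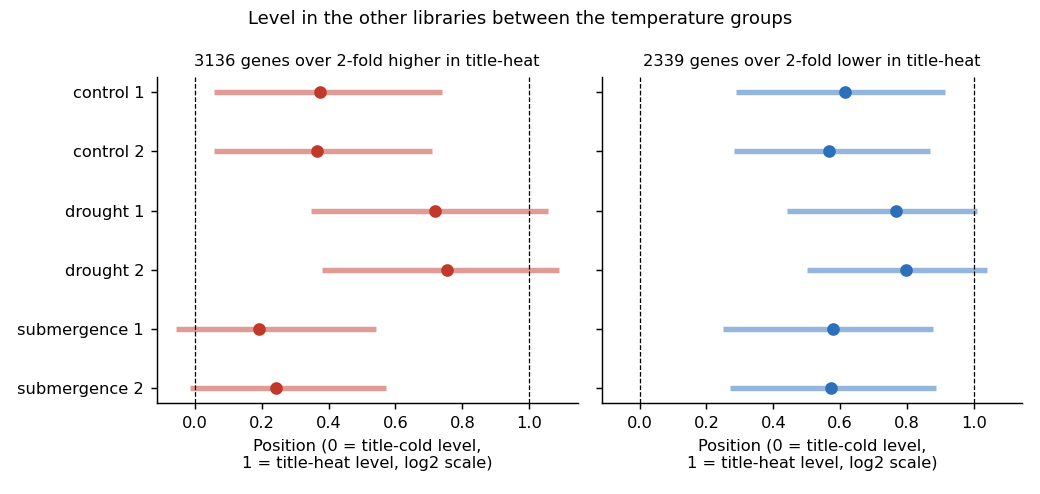
Position of each control, drought and submergence library between the mean title-cold level (0) and the mean title-heat level (1) on the log2(CPM + 1) scale, for 3136 genes over 2-fold higher (left, red) and 2339 over 2-fold lower (right, blue) in title-heat. Points are medians over genes and bars run from the lower to the upper quartile; drought medians lie at 0.72 and 0.75 on the left and 0.77 and 0.80 on the right.

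Drought and submergence were then compared with control in a fit that held no temperature library, so that no library is shared with the comparison above. Of the 5593 higher genes, 5283 were tested there, and of the 5202 lower genes 4635. Control seedlings may differ in age from the stressed ones, and its part in these calls was not tested. Of the 5283, 1880 (35.6%) were called higher under drought than in control, where 17.7% of all 19403 genes tested in both fits were, and 606 (11.5%) were called lower, against 13.8% of all. Of the 4635 lower genes, 373 (8.05%) were higher and 805 (17.4%) lower under drought. Across the 19403 genes the log2 differences of title-heat over title-cold and of drought over control correlated at r = 0.342 (Spearman 0.328), a description over genes that share libraries within each comparison.

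The share called higher under drought grew with the size of the temperature difference. Among genes higher in title-heat by less than 2-fold, 24.0% were higher under drought. It was 32.4% at 2- to 4-fold, 38.5% at 4- to 8-fold, 43.9% at 8- to 16-fold, 50% at 16- to 32-fold and 58.0% (200 of 345 genes) at 32-fold and above. The share called lower under drought went from 17.3% in the first class to 7.25% in the last. The lower genes showed no such rise, with 21.8% lower under drought in the class below 2-fold, 17.8% at 2- to 4-fold, 15% at 4- to 8-fold and 8.89% to 18.5% above that. Level and depth differ between these classes, and their part in the shares was not tested.

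Under submergence, more of the higher genes were called lower than were called higher. Of the 5283 higher genes, 1960 (37.1%) were called lower under submergence than in control, against 21.7% of all genes tested in both fits, and 1134 (21.5%) were called higher, against 21.1%. Of the 4635 lower genes, 1018 (22.0%) were higher and 669 (14.4%) lower under submergence. The share of the lower genes called higher under submergence was thus near the 21.1% of all genes. Across genes the log2 differences correlated at r = −0.06 (Spearman −0.11). With genes cut into 5 level classes, Spearman was −0.23 in the top class and −0.03 to −0.06 in the others. The inverse relation thus lay mainly among well-read genes. In the direct comparison of drought with submergence, 2850 of the higher genes (53.9%) were higher under drought, against 26.4% of all, and 627 (11.9%) were lower. Of the lower genes, 1527 (32.9%) were lower under drought than under submergence, against 23.2% of all, and 512 (11%) were higher. Among genes tested in both fits, the 2850 genes were 55.6% of the 5125 called higher in drought against submergence, and the 1527 were 33.9% of the 4498 called lower. Correlation across genes was r = 0.332 (Spearman 0.378).

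Most of the shares that were run with a library of the second fit left out were lower, as were most shares of all genes. Without control replicate 1 or 2, 21.6% or 20.7% of the higher genes were called higher under drought, against 9.67% or 9.50% of all genes. With total counts 42.8% of the lower genes were called higher under submergence, against 38.9% of all.

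**Figure D5:**
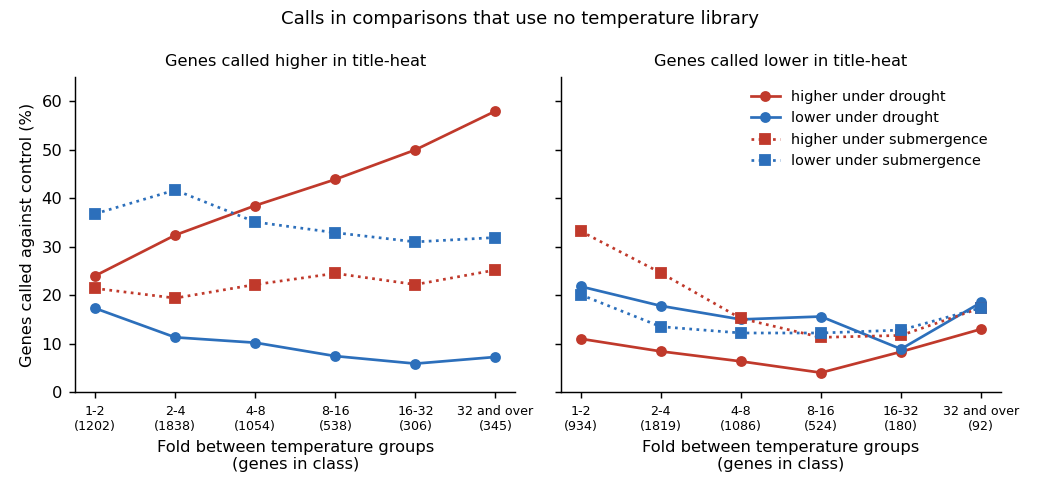
Share of genes (%, y) called higher (red) or lower (blue) than control under drought (circles, solid lines) and submergence (squares, dotted lines), by the fold between the temperature groups (x, with the number of genes in each class), for genes called higher (left) and lower (right) in title-heat. On the left the share higher under drought runs from 24.0% to 58.0%.

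Many lower genes were called in neither of these comparisons with control. Of the 4635 lower genes tested in both fits, 2374 (51.2%) were called neither under drought nor under submergence, beside 1267 (24.0%) of the 5283 higher genes, 50.6% of the genes not called between the temperature groups and 43.5% of all genes. Past the 2-fold test the shares were 55.5% of the lower and 18.8% of the higher genes. The lower genes have fewer reads, which limits what can be called, and this part was not tested.

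Where clusters from the same assembled component were both called, most pairs had the same direction. Identifiers that share the part before the point were taken as 1 component, and 1887 components had 2 or more clusters tested. They gave 2261 pairs, and both clusters were called in 729, of which 377 were both higher, 184 both lower and 168 (23%) opposite. Among 297 pairs with both clusters past the 2-fold test, 33 (11.1%) were opposite. Over all genes tested, 51.9% were called, and 51.8% of these calls were higher. Pairs of clusters from different components were not counted, so no share is set beside these. The files do not say whether such clusters are alleles, family members or splice forms of a gene, and similar sequences can share reads.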

How the data were processed

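Leaf RNA-seq was deposited by the authors as 1 table of whole-number read counts per assembled cluster, 1 column per library and no normalization, per the file headers. Per the submitters' processing notes the tools included RSEM and DESeq 1.10.1, whose use is not described. The aligner and assembly were not given in the sources used here. If RSEM made the counts, reads shared by similar sequences were split between them. Columns were matched to samples by their descriptions.

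The test was edgeR 4.0.16 under R 4.3.3. Genes passing filterByExpr (minimum count 10, minimum total 15) in the 4 temperature libraries numbered 20804 (44.8%) and held 99.49% to 99.81% of each of these libraries' counts. TMM factors were applied, and a robust quasi-likelihood model with 1 coefficient per group had 2 residual degrees of freedom and a biological coefficient of variation of 24.2%. P-values were adjusted by Benjamini and Hochberg over all genes tested, and calls need an adjusted p below 0.05. The 2-fold test was glmTreat at a log2 of 1. Control, drought and submergence were fitted the same way in their own 6 libraries (25645 genes). Group levels are CPM on TMM-scaled depth of the 4 libraries. Levels across all groups use factors from all 10. Intervals and floors cover counting error only.

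Named genes had to be called, not overlap between groups and reach 5 CPM. In each direction the largest fold (against at least 3 counts per library) and the largest difference in CPM were taken. Alternatives were other scalings, filters, tools (DESeq2 1.42.0, limma 3.58.1), thresholds, all 10 libraries, a replicate block and leaving out each library. The comparison, groups and lists were chosen with earlier results of these data known.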

Additional observations from a re-analysis of the deposited data

How the results depend on the processing

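The direction of each named gene held under every alternative run, and 3 of their adjusted p rose above 0.05, each with a title-heat library left out. Total counts gave 3290 higher and 10463 lower genes (23.9% higher), 1915 higher and 5565 lower past the 2-fold test, 22 of the 100 most-read genes lower, and, of the lower genes, 42.8% higher under submergence (38.9% of all genes) and 54.7% lower under drought than under submergence (42.3% of all). Upper-quartile factors gave 40.9% higher. Limma-voom put 1285 genes lower past the 2-fold test. An adjusted p below 0.01 gave 7027 calls (2858 lower), 3404 past the 2-fold test (1067 lower), and, of the lower genes, 7.71% lower under drought (4.44% of all genes), 14.4% higher under submergence (13.2% of all) and 20.9% lower under drought than submergence (13.4% of all). Genes read in title-heat or title-cold alone numbered 292 and 554 at 5 counts, 86 and 75 at 20 counts, and 253 and 461 with 1 count allowed in the other group. The cause of these moves was not tested.

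With 1 library left out in turn, which leaves a lone library assumed to vary like the others and 1 fewer to estimate the spread, calls numbered 6372 to 10881 (3705 to 5836 higher, 2604 to 5045 lower), genes past the 2-fold test 3178 to 5810 (2045 to 3339 higher, 1086 to 2471 lower), most-read genes called lower 7 to 12, and genes read on 1 side alone 245 to 319 and 470 to 775. Of the higher genes, 20.7% to 40.2% were higher under drought (9.50% to 17.8% of all genes). Of the lower genes, 6.57% to 20.2% were lower under drought (5.02% to 13.6% of all genes), 12.6% to 22.4% higher under submergence (12.5% to 21.2% of all) and 17.7% to 33.6% lower under drought than under submergence (12.4% to 23.1% of all).

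Replicate numbers are shared between groups, and nothing says that they pair the samples. Deviations of equally numbered libraries correlated at −0.03 across genes. With the replicate number as a block, 10163 genes were called (5379 higher, 4784 lower) against 10795. RLE factors, the other filters and the fit on all 10 libraries left the counts of genes called, of genes past the 2-fold test and of calls among the 100 most-read genes within 1.5 times their values, as did DESeq2 for the first and last of these. Level classes, size classes and genes called in neither comparison were not run under them. Depth limits calls among the least-read genes.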

Other observations

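The link between how often a gene is read and the direction of its difference also appeared when genes were ranked by other libraries that the comparison did not use. Ranked by drought level, 58.9% of the top level class were called higher in title-heat and 11.9% lower, while 12.8% of the lowest were higher and 36.4% lower. The median log2 difference ran from −1.24 to 0.71. With total counts the top class had 1413 genes higher and 1439 lower. Ranked by submergence level, 45.9% of the top class were higher and 17.9% lower, and the median ran from −0.74 in the lowest class to 0.39 in the top. With total counts the top class turned, to 991 higher and 1901 lower. These classes too hold only genes that passed the read filter in the temperature libraries, which bears most on the lowest. The step from the lowest to the top class was 1.95 ranked by drought, 1.27 by control and 1.13 by submergence. Drought levels lay nearest to title-heat, so a ranking by drought is not neutral to the direction, and this part was not tested.

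Tested genes without a read in either control library numbered 270, of which 117 were called higher in title-heat and 97 lower, where 26.9% and 25.0% of all genes tested were. These 270 genes passed the read filter on the temperature libraries, so their choice is not free of the comparison. The filter's part in their called numbers was not tested, and no conclusion is drawn from them.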
